A study of Rattus norvegicus with 10 samples.

Results

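The cytochrome P450 enzymes of the nasal epithelium and their reductase were followed in rats given N,N-dimethyl-p-toluidine (DMPT). The set holds 10 genes: the P450 genes Cyp2a3, Cyp2g1, Cyp2f4, Cyp2e1, Cyp2j4, Cyp2s1, Cyp3a9, Cyp4a8 and Cyp4b1, and Por, the gene of the reductase that passes electrons to them. They were chosen by name, as all probe sets whose only annotated gene symbol is on that list, which gave 12 probe sets of 31042 tested and 10 genes of 14217. Cyp4a8 and Por had a pair of probe sets each; for a gene with several, the one with the highest mean over all arrays stood for the gene. DMPT is an aromatic amine that speeds the setting of acrylic resins. The animals were male F344/N rats of 5 to 6 weeks at the start, given DMPT in corn oil by gavage at 120 mg/kg/day for 5 days (5 rats) or corn oil alone (5 rats). Transitional epithelium of the nasal cavity, the lining between the squamous and the respiratory epithelium, was cut out by laser capture, and each rat gave 1 array. Rats were housed 2 per cage, and which rats shared a cage is not known here. The tissue of each array is a mixture of the cell types under the laser.

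P450 enzymes are heme proteins, held in the endoplasmic reticulum, that insert 1 oxygen atom into a substrate. The electrons come from NADPH through Por, and for some reactions from cytochrome b5. The nasal mucosa is rich in P450s, several of them scarce in the liver, which clear inhaled and circulating compounds and can also turn them into reactive products. Removal of methyl groups from the nitrogen of N-methylated aromatic amines is a typical P450 reaction.

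The comparison asks how the transcripts of this oxidation system differed after dosing. Of the 10 members 1 rose, 4 fell and 5 did not pass the test, where 13.9% of all genes passed (limma, Benjamini-Hochberg adjusted p under 0.05), 7.13% higher and 6.77% lower. Cyp3a9 rose 11.4-fold. Cyp4a8 fell 2.82-fold, Cyp2g1 fell 2.09-fold, Cyp2s1 fell 1.89-fold and Cyp2a3 fell 1.41-fold. Cyp2f4, Cyp2e1, Cyp2j4, Cyp4b1 and Por did not pass. The calls of Cyp2g1 and Cyp2s1 were each lost in 7 of the 10 fits that left out 1 rat, as given with those genes. Among the members 9 had a difference below 0, and their median was -0.24 log2 units, where the median of all genes was -0.0052. The groups did not overlap in 4 of the 10 genes, against 13.9% of all genes. A mean below the median of every array was found for 2 of the 10 members and for 5125 of all 14217 genes. The shares over genes as bright as the members were not computed. The members and the gene lists used below were chosen with earlier results of these data known. Their shares therefore describe the lists and do not test them. Values here are log2 expression levels as deposited, a difference is DMPT minus vehicle on that scale, and an error after a difference is its standard error with 5 arrays a group.

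**Figure D1:**
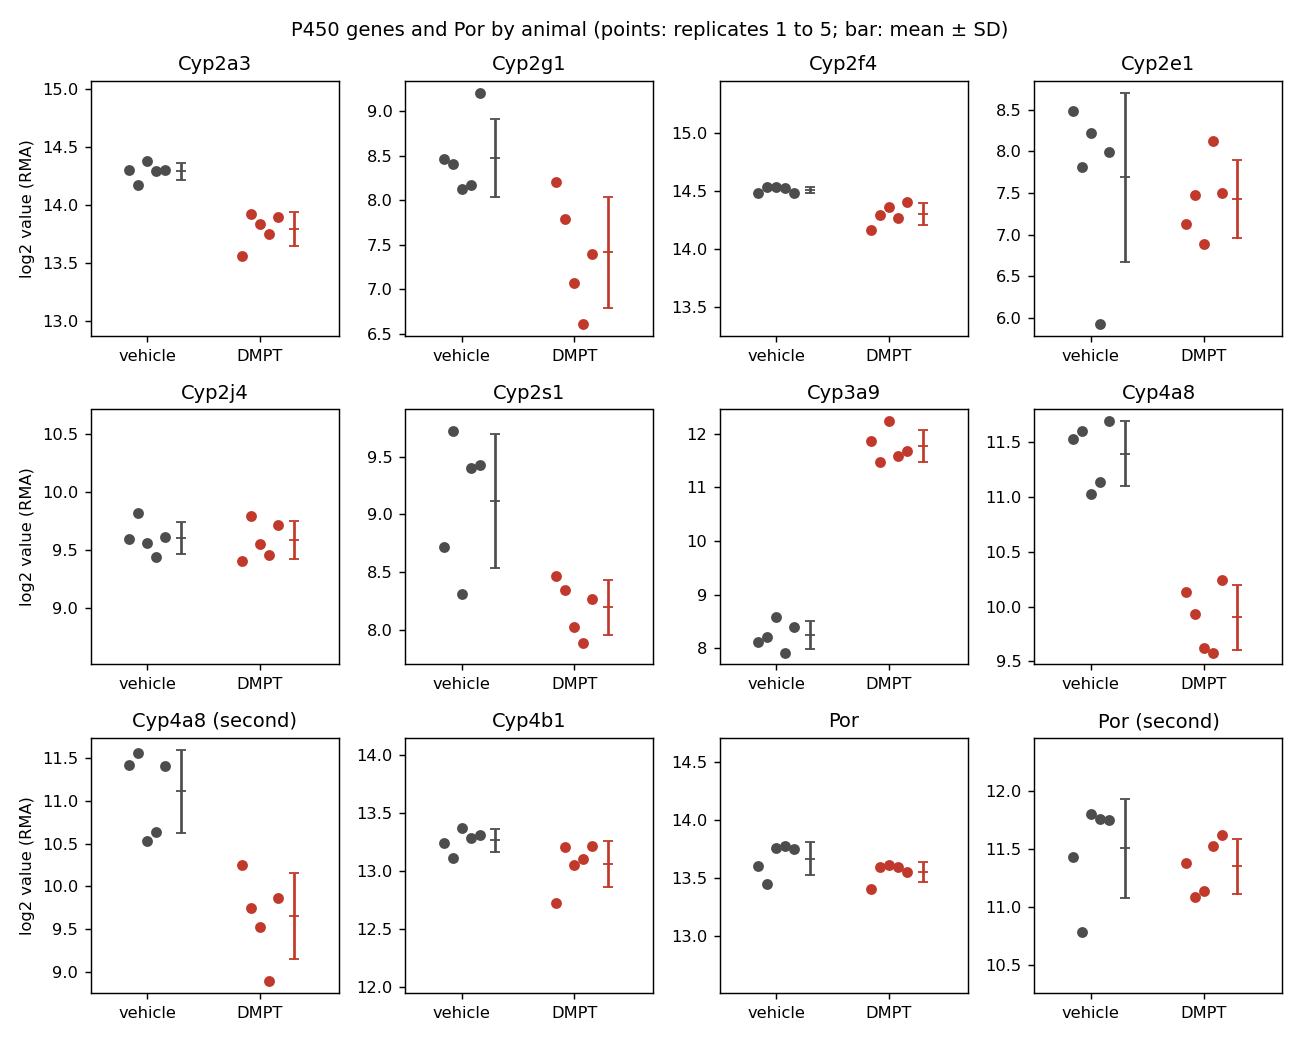
Log2 value of each of the 12 probe sets in each rat; points are the 5 rats of a group in replicate order and the bar beside them is the mean ± SD. Every panel has its own vertical range. The DMPT points of Cyp3a9 lie far above vehicle (11.47 to 12.23 against 7.92 to 8.59), those of both Cyp4a8 probe sets lie below, and the points of Cyp2j4 and Por overlap.

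The members were read against the makeup of the captured tissue. The epithelial genes Epcam, Cdh1 and Krt18 stood at 13.59, 13.18 and 13.64 in the vehicle group, and the basal keratin gene Krt5 at 12.58. The olfactory neuron gene Cnga2 (4.52) and the olfactory glucuronosyltransferase gene Ugt2a1 (5.31) lay below the lower quartiles of all arrays, which ran from 6.38 to 6.51, as did the club cell gene Scgb1a1 (6.06). Omp, the marker of mature olfactory neurons, stood at 7.23. Brighter than Omp in the vehicle group were the olfactory neuron genes Gnal (7.64), Adcy3 (8.18) and Gng13 (10.78). So were Ermn (11.87), Sec14l3 (11.94) and Aqp5 (14.07), of the list of sustentacular and Bowman gland markers. Ugt2a1 and Gpx6 (6.87), of the same list, were dimmer than Omp. Whether the 3 bright genes come from those cells in this tissue was not tested. After DMPT, 5 of 6 measured genes of ciliated cells and 3 of 9 secretory genes fell, and 5 of 9 basal and squamous genes rose. Of 7 endothelial genes, 5 rose. Relative to the vehicle mean, the mean of the ciliated list lay between -0.76 and 0.58 in vehicle rats and between -2.15 and -0.47 in DMPT rats. The basal and squamous list lay between -0.11 and 0.093 in vehicle rats and between 1.14 and 1.80 in DMPT rats. For the secretory list the ranges were -0.42 to 0.32 and -0.97 to 0.070, and for the endothelial list -0.53 to 0.71 and 0.72 to 1.91, vehicle first. Of the further lists, 2 of 7 general epithelial genes and 1 of 7 olfactory neuron genes rose, 2 of 3 nasal gland genes fell and 1 of 5 leukocyte genes rose. Over all genes 13.9% passed, and the olfactory neuron list (14.3%) and the leukocyte list (20%) were near that share. Of 6 liver genes, 0 passed in limma, 1 of them (Apoc3, unadjusted p = 0.0468) under 0.05 without adjustment. Vehicle replicate 2 stood apart with the lowest mean of the general epithelial list, at -0.40, and DMPT replicate 1 with the highest of the olfactory neuron list, at 0.59. The difference between the 3′ and 5′ control probe sets, a sign of RNA quality, averaged 1.10 after DMPT and 1.28 with vehicle (two-sided exact permutation p = 0.143 over 252 labelings). The part of cell makeup and RNA quality in the P450 results was not tested beyond the values given here, and in such tissue fewer cells of a type and less RNA per cell cannot be told apart.

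Cyp3a9, a member of the CYP3A subfamily, which oxidises steroids and many drugs, was the one member to rise. Vehicle replicates 1 to 5 had log2 values of 8.12, 8.21, 8.59, 7.92 and 8.40. DMPT replicates 1 to 5 had 11.86, 11.47, 12.23, 11.58 and 11.68. Every DMPT rat was above every vehicle rat by a wide margin, and the spread within each group was small. The difference was 3.51 ± 0.16 (95% interval 3.16 to 3.87; adjusted p = 7.76e-07), or 11.4-fold with an interval of 8.94 to 14.6. It was the 7th largest rise among the 14217 genes. It ran from 3.40 to 3.60 when each array was left out in turn. The other 3 measured genes of its subfamily were near the bottom of the scale in both groups: Cyp3a2 averaged 3.48 with vehicle and 3.57 after DMPT, Cyp3a18 3.67 in both, and Cyp3a23-3a1 3.50 and 3.53. None of the 3 passed the test, and their adjusted p-values were 0.588, 0.996 and 0.888. The genes with the profile closest to Cyp3a9 were Scin, which encodes an actin-severing protein, Akr7a3, an aldehyde reductase gene, and Maff, a small Maf transcription factor gene. Closeness was the root mean square distance over the 10 arrays after each gene's vehicle mean was subtracted, and it was 0.41, 0.44 and 0.45 log2 units in that order. The distance includes the difference between the groups, so a close profile needs a similar difference, here 3.87, 3.90 and 3.52. Variation shared among rats was not measured apart from it, here or for the closest profiles of other members.

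The promoter of Cyp3a9 is shown because this gene stands alone in its direction; it is the 250 bases before the RefSeq start in GRCr8, at chr12:21960161-21960410 on the minus strand, and promoters were found for all 10 members. It is written 5′ to 3′, and capitals mark every match to 6 motifs searched on both strands: the antioxidant response core TGACNNNGC, the xenobiotic response core GCGTG, the AP-1 motif TGANTCA, the nuclear receptor half-site AGGTCA, the NFI half-site TTGGC and the TATA box TATAAA.
Cyp3a9: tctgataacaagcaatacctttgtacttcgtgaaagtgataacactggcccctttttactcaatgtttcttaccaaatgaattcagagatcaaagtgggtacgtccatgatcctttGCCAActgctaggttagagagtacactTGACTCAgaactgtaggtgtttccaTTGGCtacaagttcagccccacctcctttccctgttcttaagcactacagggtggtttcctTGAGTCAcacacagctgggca
The capitals are a pair of AP-1 matches, starting 107 and 21 bases before the start, and a pair of NFI half-sites, starting 134 and 82 bases before it. The AP-1 motif was found in 6.34% of the 33469 promoters of this length and in 1 of the 10 members, which is Cyp3a9. The NFI half-site, a short motif, was in 40.3% of promoters and in 5 members. The xenobiotic response core was in 25.9% of promoters and, among the members, in that of Por alone. The antioxidant response core was in 10.1% of promoters and in those of Cyp2s1 and Cyp4b1. The nuclear receptor half-site was in 14.1% of promoters and in those of Cyp2s1, Cyp2e1 and Por; in Por it overlapped a xenobiotic response core. Matches are descriptions of these letters in this window.

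Cyp4a8 encodes a fatty acid hydroxylase of the CYP4A subfamily, and it fell in both of its probe sets. Vehicle replicates 1 to 5 had 11.53, 11.60, 11.03, 11.14 and 11.69, and DMPT replicates 1 to 5 had 10.13, 9.94, 9.62, 9.58 and 10.24. The groups did not overlap, and DMPT replicates 3 and 4 were the lowest. The difference was -1.49 ± 0.17 (95% interval -1.87 to -1.12; adjusted p = 0.000274). The second probe set gave -1.45 ± 0.27 (adjusted p = 0.00542), also without overlap. It had vehicle values of 11.42, 11.56, 10.53, 10.63 and 11.41 and DMPT values of 10.25, 9.75, 9.53, 8.89 and 9.87. In both probe sets vehicle replicates 3 and 4 were the lowest of their group. The genes closest to Cyp4a8 over the 10 arrays were Epha5, an ephrin receptor gene, Smim1 and the semaphorin gene Sema3d, at distances of 0.21, 0.24 and 0.26 log2 units. The promoter of Cyp4a8, the member that fell most, lies at chr5:133970227-133970476 on the minus strand and held no match to the 6 motifs.
Cyp4a8: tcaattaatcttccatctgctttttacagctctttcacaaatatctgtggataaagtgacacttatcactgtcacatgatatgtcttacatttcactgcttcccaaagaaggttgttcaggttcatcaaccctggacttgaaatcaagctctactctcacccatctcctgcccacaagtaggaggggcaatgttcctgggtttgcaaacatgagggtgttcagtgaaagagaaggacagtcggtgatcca
Cyp4a8 and Cyp4b1 stand at the ends of a run of 6 P450 genes on chromosome 5 in GRCr8, of which 4 were measured. Cyp4a1, a fatty acid hydroxylase gene between them, fell by 0.87 ± 0.24 (adjusted p = 0.0405), and Cyp4a3 differed by 0.22 ± 0.13 (adjusted p = 0.356). Cyp4a1 lost its call in 6 of the 10 omissions, those of vehicle rats 1, 3, 4 and 5 and DMPT rats 3 and 5, and its difference ran from -0.96 to -0.63. With the RNA quality measure as a covariate it was -0.84 (adjusted p = 0.125).

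Cyp4b1, an airway P450 that activates several protoxins, did not pass. Its vehicle values ran from 13.11 to 13.37 with a median of 13.28, and its DMPT values from 12.72 to 13.21 with a median of 13.10. The groups overlapped, and DMPT replicate 1 was the lowest. The difference was -0.21 ± 0.11, with a 95% interval from -0.44 to 0.030 (adjusted p = 0.271). The difference between the changes of Cyp4a8 and Cyp4b1 was not tested.

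Cyp2a3, Cyp2g1, Cyp2s1 and Cyp2f4 lie in one gene cluster on chromosome 1. Cyp2a3 is a nasal P450 that oxidises small aromatic and nitrogen compounds. Its vehicle values were 14.30, 14.18, 14.38, 14.29 and 14.30 in replicates 1 to 5, and its DMPT values were 13.56, 13.92, 13.83, 13.75 and 13.89. The groups did not overlap, and DMPT replicate 1 was the lowest. The difference was -0.50 ± 0.092 (95% interval -0.70 to -0.30; adjusted p = 0.00542), and the call held in each of the 10 omissions of 1 array, with values from -0.53 to -0.44. The brightest probe set of each array read 15.09 to 15.15, so Cyp2a3 was measured near the top of the scale, where the size of a difference is uncertain. The closest profiles were those of Mettl7a, Prxl2a and the acyl-CoA synthetase gene Acsm1, at 0.075, 0.078 and 0.083 log2 units.

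Cyp2g1 encodes a P450 known from the olfactory mucosa, where it hydroxylates steroids. Vehicle replicates 1 to 5 had 8.47, 8.41, 8.13, 8.17 and 9.21, and DMPT replicates 1 to 5 had 8.21, 7.79, 7.08, 6.61 and 7.39. The groups overlapped through DMPT replicate 1, which was above vehicle replicates 3 and 4. The difference was -1.06 ± 0.29 (95% interval -1.69 to -0.43; adjusted p = 0.0362). The call held in only 3 of the 10 omissions, those of vehicle replicate 3, DMPT replicate 1 and DMPT replicate 2. It was lost without vehicle rats 1, 2, 4 and 5 and DMPT rats 3, 4 and 5. Over all omissions the difference ran from -1.26 to -0.86 and the adjusted p from 0.0154 to 0.0913. With the RNA quality measure as a covariate the difference was -1.17 (adjusted p = 0.0719). The lists of olfactory neuron markers and of sustentacular and Bowman gland markers had 12 measured genes. Of these, vehicle replicate 5, the highest vehicle rat in Cyp2g1, was the highest of its group in 7 and the lowest in 1, Adcy3. DMPT replicate 1, the highest DMPT rat in Cyp2g1, was the highest of its group in 8 and the lowest in 2, Aqp5 and Gng13. Omp and Gpx6 were among the markers in which both were highest. How often these rats were highest of their group over all genes was not computed. The markers Cnga2 (4.52), Ugt2a1 (5.31) and Ano2 (6.02) had vehicle means below the lower quartiles of all arrays. Vehicle replicate 5 had 7.98 for Omp and 8.65 for Gpx6, a glutathione peroxidase of Bowman glands, where the vehicle medians were 7.15 and 6.84. DMPT replicate 1 had 8.45 for Omp and 7.96 for Gpx6, where the DMPT medians were 7.15 and 5.99. The difference of Omp was 0.19 (adjusted p = 0.750) and that of Gpx6 was -0.54 (adjusted p = 0.630). Ermn and Sec14l3, of the same list of sustentacular and Bowman gland markers, fell by 2.38 and 1.46. Of its 5 measured genes, 3 fell and 2 did not pass, and its mean relative to vehicle lay between -0.43 and 0.56 in vehicle rats and between -1.13 and -0.42 in DMPT rats. The closest profiles to Cyp2g1 were those of the sialyltransferase gene St3gal2, the proton pump subunit gene Atp6v1c2 and the phosphate transporter gene Slc34a3, at 0.30, 0.30 and 0.32 log2 units. The part of sustentacular, gland and olfactory cells in the Cyp2g1 result was not tested.

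Cyp2s1 encodes a P450 of epithelia outside the liver. Vehicle replicates 1 to 5 had 8.72, 9.72, 8.32, 9.40 and 9.43, and DMPT replicates 1 to 5 had 8.47, 8.35, 8.03, 7.89 and 8.27. The vehicle rats were widely spread, and vehicle replicate 3 fell among the DMPT rats. The difference was -0.92 ± 0.24 (95% interval -1.45 to -0.39; adjusted p = 0.0318). The call was lost in 7 omissions, those of vehicle rats 2, 4 and 5 and DMPT rats 2 to 5. Values ran from -1.12 to -0.77 and adjusted p from 0.00595 to 0.0788. It was also lost with array weights (-0.73, adjusted p = 0.0508) and with the RNA quality covariate (-0.90, adjusted p = 0.102). Vehicle replicate 3 was lowest and vehicle replicate 2 highest in Cyp2s1, as in the mean of the ciliated list (-0.76 and 0.58). Vehicle replicate 3 was also the lowest vehicle rat in the sustentacular and Bowman gland (-0.43), olfactory neuron (-0.22), secretory (-0.42) and nasal gland (-0.88) lists. Among DMPT rats replicate 1 was highest in both Cyp2s1 and the ciliated list. The lowest was replicate 4 in Cyp2s1 and replicate 3 in the ciliated list (-2.15). The part of ciliated cells in the Cyp2s1 result was not tested.

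Cyp2f4, which oxidises naphthalene in the airways, missed the threshold although its groups did not overlap. Vehicle values were 14.49, 14.54, 14.53, 14.52 and 14.48, and DMPT values were 14.16, 14.29, 14.36, 14.27 and 14.41. All vehicle rats stood within a band far narrower than the DMPT rats. The difference was -0.21 ± 0.078 (95% interval -0.39 to -0.044; unadjusted p = 0.0182, adjusted p = 0.107). With an intensity trend and robust variances in limma the adjusted p was 0.00915, on the same difference. Cyp2f4 was also close to the top of the scale.

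The promoters of the cluster members that fell are shown because they lie in the same cluster and fell. Cyp2g1 and Cyp2a3 are next to each other, and 11 genes lie between Cyp2s1 and Cyp2g1. Capitals mark the same 6 motifs, and each sequence is the 250 bases before the RefSeq start in GRCr8. Cyp2s1 lies at chr1:90453074-90453323 on the minus strand, Cyp2g1 at chr1:91273059-91273308 and Cyp2a3 at chr1:91299334-91299583, both on the plus strand.
Cyp2s1: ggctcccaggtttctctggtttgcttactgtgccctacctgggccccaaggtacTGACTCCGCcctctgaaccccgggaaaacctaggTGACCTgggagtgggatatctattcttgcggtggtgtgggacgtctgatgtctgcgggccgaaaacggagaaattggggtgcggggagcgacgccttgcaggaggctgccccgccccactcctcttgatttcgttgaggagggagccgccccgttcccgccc
Cyp2g1: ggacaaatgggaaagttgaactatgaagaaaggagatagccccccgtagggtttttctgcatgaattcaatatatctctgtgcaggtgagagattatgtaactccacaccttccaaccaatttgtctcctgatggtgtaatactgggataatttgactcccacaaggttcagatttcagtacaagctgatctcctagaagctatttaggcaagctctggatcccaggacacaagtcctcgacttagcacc
Cyp2a3: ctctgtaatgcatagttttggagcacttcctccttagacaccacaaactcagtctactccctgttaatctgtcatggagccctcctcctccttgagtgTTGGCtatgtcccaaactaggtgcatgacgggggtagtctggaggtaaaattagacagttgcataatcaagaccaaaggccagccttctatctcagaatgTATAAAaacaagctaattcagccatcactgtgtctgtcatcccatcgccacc
Cyp2s1 held an antioxidant response core 196 bases before its start and a nuclear receptor half-site 162 bases before it. Cyp2a3 held an NFI half-site 152 bases before its start and a TATA box 52 bases before it, a motif found in 12.9% of promoters. Cyp2g1 held no match. The promoter of Cyp2s1 had 15 CG pairs and 62.4% G and C, that of Cyp2g1 had 2 and 44%, and that of Cyp2a3 had 2 and 46.4%, where the medians of all promoters were 5 and 51.2%. No motif of the 6 was found in all 3. The stretch from Cyp2s1 to Cyp2f4 holds 17 protein-coding genes in the RefSeq annotation of GRCr8, 14 of them with a P450 symbol. Of the 9 measured, all P450s, 3 fell and 6 did not pass, where 6.77% of all genes were lower. Besides Cyp2f4 the latter were Cyp2b3, Cyp2b21, Cyp2b12, Cyp2a1 and Cyp2a2, with vehicle means between 3.86 and 6.96. The 3 that fell are the members for which the stretch was chosen, so the count is no separate result. Cyp2b1 and Cyp2b2, also in the stretch, are outside the count because they share a probe set. That probe set was bright (vehicle mean 14.03) and did not pass (-0.086, limma adjusted p = 0.627).

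Cyp2e1 oxidises ethanol and other small molecules, and its spread was the widest among the members. Vehicle replicates 1 to 5 had 8.49, 7.81, 8.22, 5.92 and 7.99, and DMPT replicates 1 to 5 had 7.13, 7.47, 6.88, 8.13 and 7.50. Vehicle replicate 4 was below every other rat of either group. The difference was -0.26 ± 0.42, with a 95% interval from -1.19 to 0.66 (adjusted p = 0.768) or a ratio between 0.440 and 1.58. Leaving out 1 array moved the difference between -0.70 (vehicle replicate 4; adjusted p = 0.0929) and -0.062 (vehicle replicate 1).

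Cyp2j4, which converts arachidonic acid to epoxides, showed little difference. Vehicle values ran from 9.44 to 9.82 around a median of 9.60, and DMPT values from 9.41 to 9.79 around 9.55. The ranges covered each other almost fully. The difference was -0.020 ± 0.11 with a 95% interval from -0.25 to 0.21 (adjusted p = 0.937), and its sign turned in several alternatives, among them array centring (0.019).

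Por passes electrons from NADPH to the P450s of the endoplasmic reticulum. Vehicle replicates 1 to 5 had 13.60, 13.45, 13.76, 13.77 and 13.74, and DMPT replicates 1 to 5 had 13.41, 13.59, 13.61, 13.59 and 13.55. The groups overlapped, with vehicle replicate 2 and DMPT replicate 1 the lowest. The difference was -0.12 ± 0.092 (95% interval -0.32 to 0.085; adjusted p = 0.496), a ratio between 0.80 and 1.06. The second probe set of Por gave -0.15 ± 0.19 (adjusted p = 0.694), with vehicle replicate 2 at 10.78 and the other vehicle rats from 11.44 to 11.80.

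**Figure D2:**
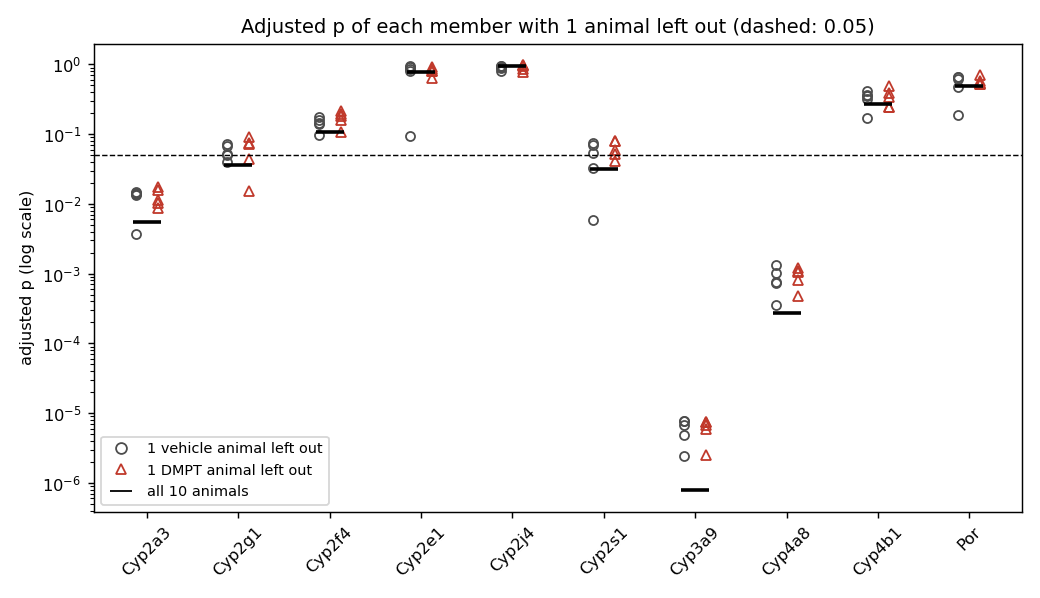
Adjusted p of each member (log scale) with all 10 rats (bar) and with 1 vehicle rat (circle) or 1 DMPT rat (triangle) left out; the dashed line is 0.05. Cyp3a9, Cyp4a8 and Cyp2a3 stay under the line in every omission, Cyp2g1 and Cyp2s1 cross it, and the other 5 members stay above it.

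Partner proteins of the P450s went both ways. Of 8 measured among 10 listed, 2 rose, 2 fell and 4 did not pass, or 50% called against 13.9% of all genes. Of the 8, 0 had a mean below the median of every array, where 5125 of all 14217 genes did. The share called over genes as bright was not computed, and the list was chosen with earlier results of these data known. Cyb5a, the cytochrome b5 of the endoplasmic reticulum that can hand an electron to P450s, rose by 0.44 ± 0.089 (adjusted p = 0.00872). Pgrmc1, a heme-binding membrane protein that associates with P450s, rose by 0.62 ± 0.095 (adjusted p = 0.00189). Cyb5b, the cytochrome b5 of the outer mitochondrial membrane, fell by 0.57 ± 0.086 (adjusted p = 0.00172). The second probe set of Cyb5b fell by 0.40 ± 0.11 (adjusted p = 0.0453), and there the groups overlapped. In the probe sets that stood for the genes, the 4 called partners had groups without overlap. The fourth was Cyb5r2, a cytochrome b5 reductase gene named after its value was seen, which fell by 1.27 ± 0.30 (adjusted p = 0.0188). The call of Cyb5r2 was lost without DMPT replicate 3 (-1.14, adjusted p = 0.0517) and with the RNA quality covariate (-1.08, adjusted p = 0.0951). Cyb5r3, the main cytochrome b5 reductase, differed by 0.34 ± 0.25 (adjusted p = 0.458). Vehicle replicate 2 had 11.04 for it and every other rat between 12.45 and 12.64; without that array the difference was 0.052.

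Heme is the cofactor of every P450, and 2 of 10 measured genes of its synthesis and transport rose, with 0 lower and 8 not past the test. That is 20% called, where 13.9% of all genes were. Of the 10, 0 had a mean below the median of every array, and the share over genes as bright was not computed. This list too was chosen with earlier results of these data known. In limma, 2 genes of the list with a difference below 0 were under 0.05 before adjustment, Uros (0.0209) and Alas1 (0.0218). Abcb6, a porphyrin transporter gene with a difference above 0, was nearer to the threshold, at 0.86 ± 0.26 (unadjusted p = 0.00623, adjusted p = 0.0540) and without overlap. Vehicle replicate 2 had 9.35 for it and the other vehicle rats 10.73 to 10.87; without that array the difference was 0.57 (adjusted p = 0.00365). Abcb6 also passed with array weights, the intensity trend, gene means or the filter on dim probe sets (adjusted p from 0.0169 to 0.0441). Fech, which inserts iron in the last step, rose by 1.10 ± 0.11 (adjusted p = 0.000126). Its vehicle mean was 11.39 ± 0.20 (SD, n = 5) and its DMPT mean 12.49 ± 0.11 (SD, n = 5), and the groups did not overlap. Urod, a decarboxylase of the pathway, rose by 0.35 ± 0.077 (adjusted p = 0.0128). Alas1, the first and rate-setting enzyme outside blood cells, differed by -0.26 ± 0.098 (adjusted p = 0.120, or 0.0420 with an intensity trend and robust variances).

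**Figure D3:**
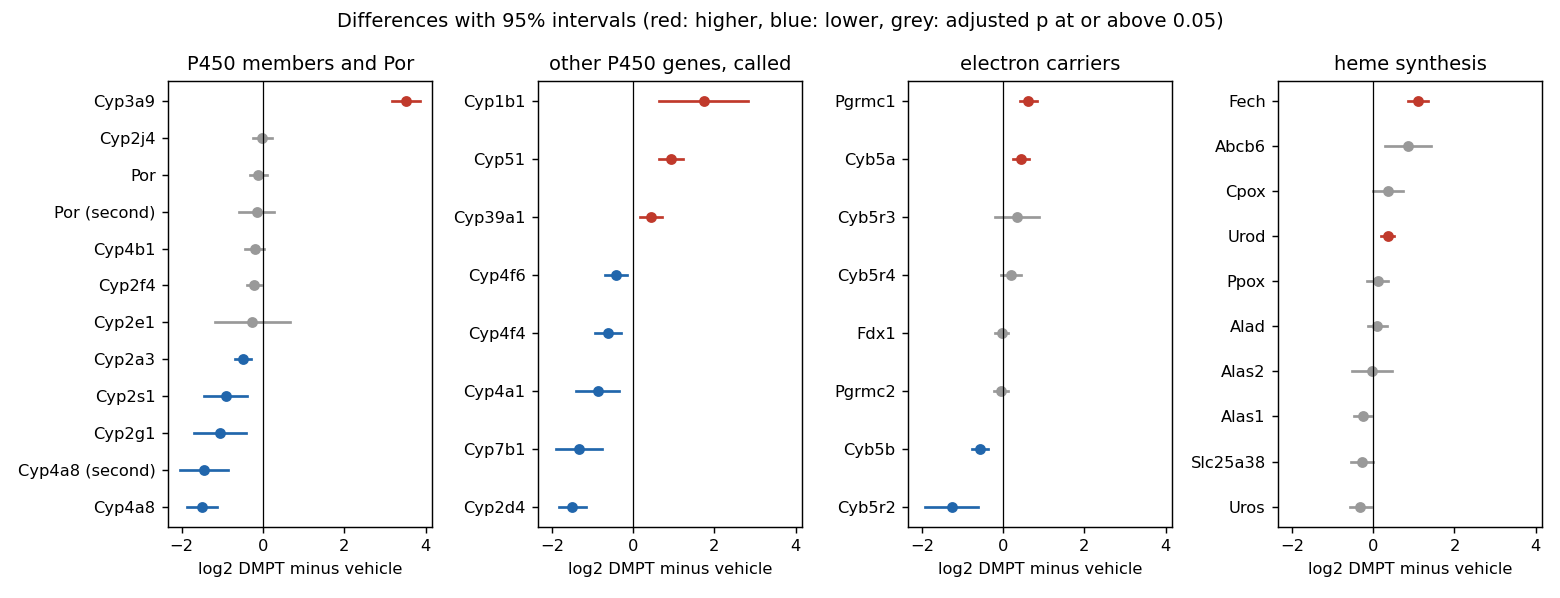
Difference (log2 DMPT minus vehicle) with its 95% interval for the 12 member probe sets, the 8 other P450 genes that passed, the 8 measured electron carriers and partners and the 10 measured heme genes. Red genes were higher, blue genes lower and grey genes did not pass; Cyp3a9 at 3.51 lies apart from all others.

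Transcription factors that act on P450 genes were measured for 23 of 24 listed, of which 2 rose, 3 fell and 18 did not pass. That is 21.7% called, against 13.9% of all genes, in a list chosen with earlier results of these data known. Cebpa, a factor of differentiated epithelium and liver, rose by 0.96 ± 0.13 (adjusted p = 0.00106). Of its 4 other probe sets 2 rose, by 0.70 (adjusted p = 0.000429) and 1.28 (adjusted p = 0.0150), and 2 did not pass, at 0.087 (adjusted p = 0.601) and 1.48 (adjusted p = 0.0918). Ppard, a lipid-sensing nuclear receptor gene, rose by 0.67 ± 0.12 (adjusted p = 0.00358) and by 0.53 in its second probe set (adjusted p = 0.0210). Foxa1, a forkhead factor of airway and gland epithelium, fell by 1.05 ± 0.15 (adjusted p = 0.00135). Nfia, of the NFI family, fell by 0.45 ± 0.085 (adjusted p = 0.00628). Another probe set of Nfia fell by 0.54 ± 0.090 (adjusted p = 0.00319), and another differed by -0.22 ± 0.27 (adjusted p = 0.688). Nfix, of the same family and named after its value was seen, fell by 0.32 ± 0.075 (adjusted p = 0.0179); its adjusted p was 0.0663 with the replicate number as a block. The second probe set of Nfix differed by -0.40 ± 0.14 (adjusted p = 0.104). Ahr, the receptor of aromatic pollutants, differed by 0.45 ± 0.14 (adjusted p = 0.0649, or 0.0479 with the intensity trend). The second probe set of Ahr differed by 0.19 ± 0.17 (adjusted p = 0.558). Nr1i2, the pregnane receptor that induces CYP3A genes in the liver, was dim, at 6.05 with vehicle and 5.94 after DMPT, and differed by -0.11 ± 0.17 (adjusted p = 0.762).

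Beyond the members, 49 other P450 genes were measured; 3 rose, 5 fell and 41 did not pass. That is 16.3% called, against 13.9% of all genes. A mean below the lower quartile of every array was found for 26 of the 49. Of the 21 with a mean above the lower quartile of every array, 2 rose and 5 fell, or 33.3%; the same share over all genes as bright was not computed. Among the 33 genes of families 1 to 4, which hold most drug and fatty acid oxidation, 1 rose and 4 fell. Among the 16 of families 5 and above, which act mainly on sterols, retinoids and vitamin D, 2 rose and 1 fell.

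Cyp2d4 fell in both of its probe sets, with differences of -1.49 ± 0.15 (adjusted p = 0.00014) and -2.22 ± 0.17 (adjusted p = 3.03e-05). In the first, vehicle replicates 1 to 5 had 9.33, 9.59, 9.95, 9.99 and 9.63, and DMPT replicates 1 to 5 had 8.29, 8.33, 7.92, 7.99 and 8.50. Its groups did not overlap in either probe set. Cyp4f4 and Cyp4f6, whose subfamily hydroxylates leukotrienes and fatty acids, fell by 0.62 ± 0.14 (adjusted p = 0.0183) and 0.42 ± 0.12 (adjusted p = 0.0455). Both calls were lost with the RNA quality covariate (-0.51 and -0.31; adjusted p = 0.0941 and 0.207). Cyp4f6 also lost its call without vehicle rats 3 or 4 or any 1 DMPT rat, with values from -0.47 to -0.33 over the 10 omissions, and with the replicate block (adjusted p = 0.0668).

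Of the 16 genes of families 5 and above 13 did not pass, among them the sterol hydroxylase genes Cyp7a1, Cyp8b1, Cyp27a1 and Cyp46a1. Cyp51, the demethylase of cholesterol synthesis, rose by 0.94 ± 0.13 (adjusted p = 0.00117), and its second probe set rose by 0.99 ± 0.13 (adjusted p = 0.000599). The oxysterol hydroxylase gene Cyp7b1 fell by 1.33 ± 0.26 (adjusted p = 0.00685); its DMPT mean of 5.93 lay below the lower quartiles of the arrays, so the size of the fall is uncertain. Cyp39a1, another oxysterol hydroxylase gene, rose by 0.44 ± 0.12 (adjusted p = 0.0387), and lost its call in the omissions of vehicle rats 4 and 5 and DMPT rats 2 to 5 (0.38 to 0.52 over all 10) and with the replicate block (adjusted p = 0.0558).

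Of the 3 CYP1 genes, which the Ahr induces, Cyp1b1 passed. It had vehicle values of 5.25, 5.29, 5.96, 5.32 and 5.64 and DMPT values of 7.60, 9.29, 7.00, 6.05 and 6.21. Every DMPT rat was higher, but the vehicle values were dim and DMPT replicates 4 and 5 only just cleared them. The difference was 1.74 ± 0.50 (adjusted p = 0.0464), and the call was lost without any 1 vehicle rat and without DMPT rats 1 or 3, with values from 1.22 to 2.03 over the 10 omissions. It was also lost with array weights (1.57, adjusted p = 0.0834). Cyp1a1 differed by -0.19 ± 0.26 (adjusted p = 0.722) and Cyp1a2 by -0.23 ± 0.14 (adjusted p = 0.356), and neither passed. Differences between the 3 genes were not tested.

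**Figure D4:**
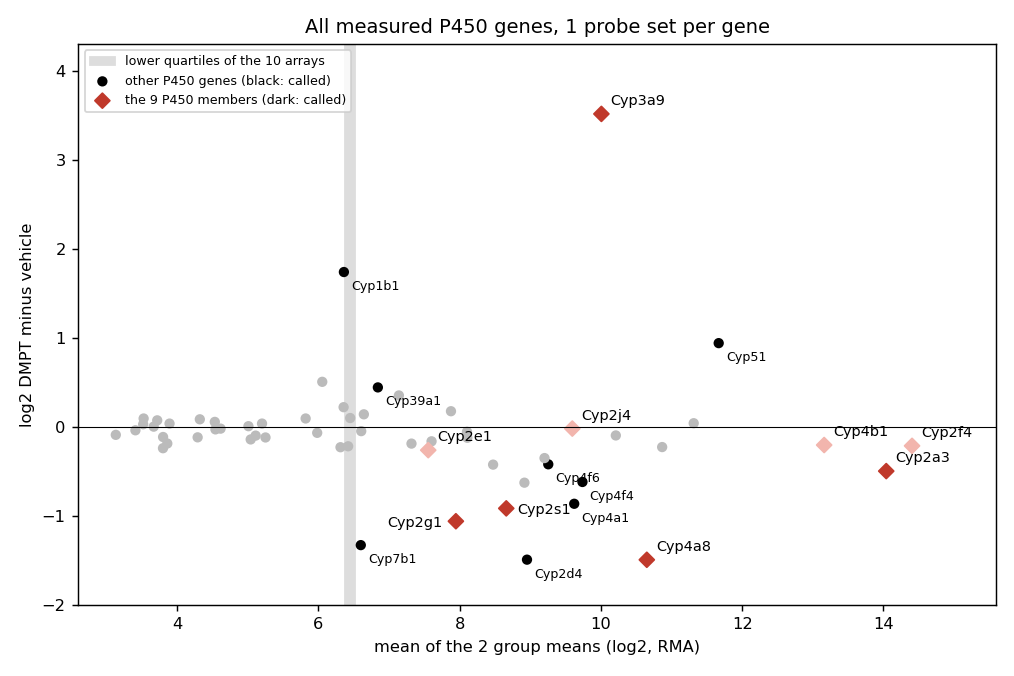
Difference against mean level for the 9 P450 members (diamonds) and 49 other P450 genes (circles), 1 probe set per gene; the grey band spans the lower quartiles of the 10 arrays. Most genes left of the band lie near 0, Cyp3a9 is the highest point at 3.51, and Cyp4a8 and Cyp2d4 are the lowest at -1.49.

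The members did not share one order of rats. Among DMPT rats, replicate 3 had the highest Cyp3a9, while the lowest Cyp4a8, Cyp2g1 and Cyp2s1 were all in replicate 4. The lowest Cyp2a3, Cyp2f4, Cyp4b1, Cyp2j4 and Por were all in replicate 1. In the second probe set of Por the lowest DMPT rat was replicate 2, at 11.08. DMPT replicate 1 was also the highest of all rats in Omp and Cnga2, at 8.45 and 5.64. DMPT replicate 3 had the lowest mean of the ciliated list, at -2.15, and the highest of the endothelial list, at 1.91. With vehicle replicate 2 and DMPT replicate 1 both left out, 1 member rose and 3 fell; Cyp3a9 differed by 3.48, Cyp4a8 by -1.50 and Cyp2a3 by -0.47, and Cyp2s1 lost its call (-0.83, adjusted p = 0.0554). Of the other P450 genes, Cyp1b1 (1.60, adjusted p = 0.132) and Cyp4f6 (-0.31, adjusted p = 0.0751) lost theirs and Cyp1a2 (-0.40, adjusted p = 0.0275) gained one.

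**Figure D5:**
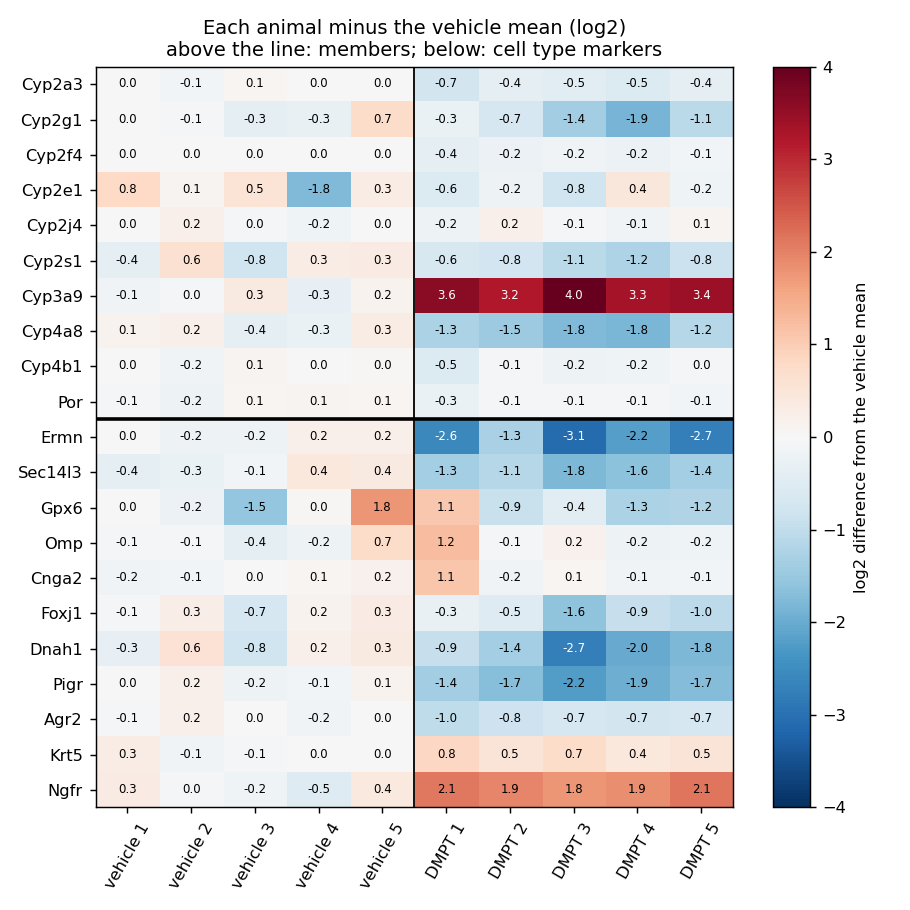
Log2 value of each rat minus the vehicle mean, for the 10 members (above the black line) and 11 markers of sustentacular and gland cells, olfactory neurons, ciliated, secretory and basal cells (below it). The markers are a selection, and the secretory and basal ones drawn all passed. Of all 9 secretory genes 6 did not pass, among them Muc5ac, not drawn, at 1.29 (limma adjusted p = 0.0711). Of all 9 basal and squamous genes 4 did not pass. The row of Cyp3a9 is red in all 5 DMPT rats, that of Cyp4a8 blue, and DMPT 1 stands out in Omp, Cnga2 and Gpx6.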

How the data were processed

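Values are those deposited by the authors on the log2 scale, 1 per probe set and array, made with RMA per the submitters' processing notes, which name no version. Per the labels' protocols, 4 ng of RNA was amplified, with an RNA integrity number above 5. Of 31099 probe sets, 57 controls were set aside. Gene names came from the platform annotation: 20826 probe sets had 1 symbol, 436 several and 9780 none, and those without exactly 1 symbol were tested but not named. The test was limma's (version 3.58.1, R 4.3.3; lmFit and eBayes) over all 31042 probe sets, two-sided, with Benjamini-Hochberg adjustment and a threshold of 0.05; the fit was tested on simulated data. The authors used ORIOGEN, which was not run. Arrays give no read depth; their number limits the precision. The members and lists were chosen with earlier results of these data known. Genes named beyond the members were up to 8 called P450 genes and the called genes of the other lists with the lowest p (at most 3 each), a fixed panel (Cyb5a, Cyb5r3, Alas1, Nr1i2, Ahr, Nfia), and the 3 closest profiles of 4 members; Cyp3a2, Cyp3a18, Cyp3a23-3a1, Cyp4a3, Cyp1a1, Cyp1a2, the cluster neighbours, the cell markers, Uros, Abcb6, Apoc3, Cyp7a1, Cyp8b1, Cyp27a1, Cyp46a1, Cyb5r2 and Nfix were named after their values were seen. Replicate numbers were not treated as pairs in the main fit. The deviations of same-numbered arrays correlated between -0.067 and 0.23, and 2 of the 5 numbers matched their own number best. Correlations between different numbers are not given here, so these values cannot decide whether the numbers are pairs. Alternatives were array centring, quantile normalization, a filter on dim probe sets, a variance trend, array weights, an RNA quality covariate, the replicate block, gene means over probe sets and the omission of each array; leaving out vehicle replicate 2 and DMPT replicate 1 together was chosen after seeing the data.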

Additional observations from a re-analysis of the deposited data

Results flagged for a closer look

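In 6 of 72 groups of 5 arrays checked among the named probe sets, 1 array lay far from the other 4 by Dixon's test; chance flags about 1 in 20. For Cyp2e1 this was vehicle replicate 4, at 5.92, with the next value at 7.81. For Por it was DMPT replicate 1, at 13.41, with the next at 13.55. For Cyp4a1 it was again DMPT replicate 1, at 8.23, with the next at 9.28. For Cyb5r3 it was vehicle replicate 2, at 11.04, with the next at 12.46. For Abcb6 it was vehicle replicate 2 as well, at 9.35, with the next at 10.73. For Nfix it was vehicle replicate 4, at 12.92, above the other vehicle arrays.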

How the results depend on the processing

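The rise of Cyp3a9 and the falls of Cyp4a8 and Cyp2a3 kept their direction and stayed past the threshold in every alternative run. With the RNA quality covariate, 2 members, 2 other P450 genes, 1 partner gene and 456 of all genes were lower. With an intensity trend and robust variances, 1 heme gene (Alas1) was lower. When each array was left out in turn, lower members numbered 2 to 4, higher other P450 genes 1 to 2, lower other P450 genes 3 to 5, lower partners 1 to 2, lower heme genes 0 to 1 and lower genes overall 542 to 963; the cause was not tested. The sign of Cyp2j4, which was never called, turned with array centring (0.019), quantile normalization (0.0076), array weights (0.019), the RNA covariate (0.062), without vehicle replicate 2 (0.033), DMPT replicate 1 (0.024) or DMPT replicate 4 (0.011), and without vehicle replicate 2 and DMPT replicate 1 together (0.077); leaving out 1 array moved it between -0.073 and 0.033. With the replicate number as a block, 1 member was higher and 4 lower, 2 other P450 genes were higher and 4 lower, and 923 genes overall were higher and 987 lower; among named genes the block ended the calls of Cyp39a1, Cyp4f6 and Nfix.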

Other observations

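Some P450 probe sets carry several gene symbols and were left out of the counts. The one shared by Cyp2b1 and Cyp2b2, drug-inducible genes that lie in the same chromosome 1 cluster as Cyp2a3, was bright, between 13.90 and 14.15 with vehicle and between 13.77 and 14.07 after DMPT, and differed by -0.086 ± 0.090 (limma adjusted p = 0.627). The one shared by Cyp2a1 and Cyp2a2 was dim, from 5.79 to 6.10 with vehicle and from 5.49 to 5.72 after DMPT. It differed by -0.33 ± 0.092 (adjusted p = 0.041), and its groups did not overlap. The probe set shared by Cyp2d1 and Cyp2d5 differed by -0.27 ± 0.16 (adjusted p = 0.339).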
